A study of Drosophila melanogaster with 6 samples.

Results

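Asparagine synthetase and PPP1R15 transcripts rose and sestrin transcripts fell in Drosophila S2 cells exposed to protocatechuic aldehyde (PA) for 2 h, while crc, the Drosophila ATF4 gene, did not pass the test. The genes described here are 8 genes of the ATF4 branch of the integrated stress response, chosen by name: crc, AsnS, PPP1R15, Gcn2, PEK, Xrp1, Irbp18 and Sesn. A probe set was taken where the annotation of the array gave it exactly 1 gene with one of these names. This rule found 7 probe sets for 7 of the 8 genes, out of 18769 probe sets tested and 11953 genes. Xrp1 was not matched and is not analysed here.

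PA, a phenolic aldehyde isolated from bamboo leaves, was given at 0.1 mM to S2 cells, and 3 PA samples and 3 vehicle samples were each hybridized to 1 Affymetrix array. S2 is an established embryo-derived line with features of blood cells, grown here in medium with insulin and serum, which both groups shared. The study names DMSO as the vehicle where it measured transcripts of such cells by PCR, and what the vehicle of the array samples contained is not stated. The values are MAS5 signals, linear intensities of each probe set, scaled so that the mean of every array is the same after trimming. All 11 blood cell markers looked for lay above the median signal, and their summed signal was 61974 to 64716 with vehicle and 65259 to 68620 with PA. Hml, NimC1 and Nplp2 of these markers rose (log2 changes of 0.14, 0.15 and 0.16), srp fell (-0.15) and 7 did not pass. By the same test, described below, 10.1% of all probe sets in the upper 50% of signal were called. Whether these marker calls and the summed signal hold under other scalings of the arrays is not given here. The median signal of an array was only 20.7 to 24.8, so a place above it does not by itself show expression. The neuron marker brp and the fat body marker Lsp2 lay above it at vehicle means of 22.0 and 31.9. For neurons 2 of 3, for muscle 0 of 2, for fat body 1 of 3 and for germline 2 of 4 measured markers lay above the median signal, and none of them passed the test. The part of such shifts in the results below was not tested, and in a bulk sample fewer cells of a type and less RNA per cell cannot be told apart.

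In the integrated stress response, kinases that sense different kinds of stress phosphorylate the translation factor eIF2. General protein synthesis is then lowered, while mRNAs with short upstream reading frames, such as that of ATF4, are translated more. ATF4 is a transcription factor of the basic leucine zipper (bZIP) family that raises genes of amino acid supply, and a phosphatase subunit induced late in the response removes the phosphate from eIF2 again. The arrays measure transcripts only, so neither eIF2 phosphorylation nor the amount of crc protein was measured.

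Of the 7 probe sets, 2 were higher and 1 was lower with PA at an adjusted p under 0.05. The test was limma across all probe sets, in which the prior variance was let follow the signal (the trend), and Benjamini-Hochberg adjustment. Of all probe sets tested, 2.29% were called higher and 2.82% lower, together 5.10%. With 1 probe set for each gene the share was 6.20%. All 7 lay in the upper 50% of mean signal, between percentiles 74.8 and 99.1, and there 10.1% of probe sets were called, 4.50% higher and 5.59% lower. Their median log2 fold change was 0.10, against -0.01 over all probe sets and -0.03 in the upper 50% of signal. This median is the value of crc, which depended on the scaling of the arrays (below). The sources do not say that the 3 samples of a group came from separate cultures, and the p-values cover only the spread from sample to sample, part or all of which may be technical.

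**Figure D1:**
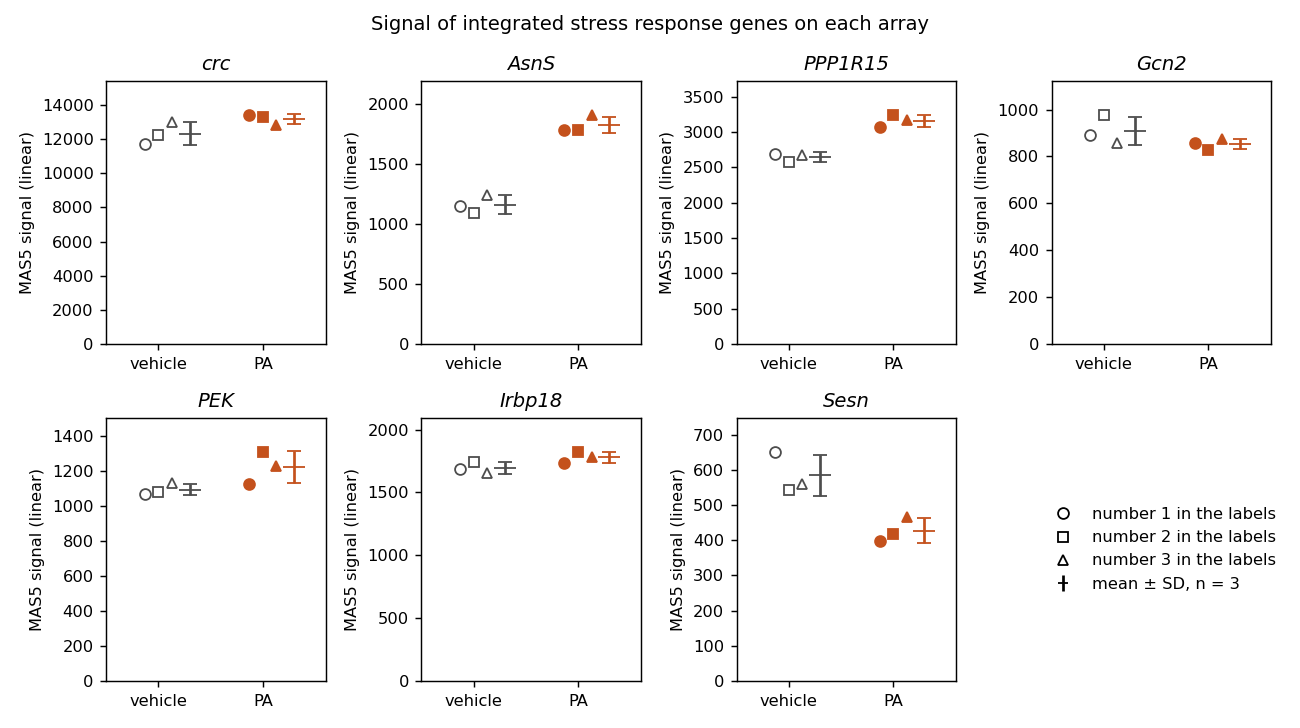
MAS5 signal (linear scale from 0) of each measured gene on the 3 vehicle arrays (open symbols) and the 3 PA arrays (filled symbols), with mean ± SD beside them. The groups are apart for AsnS, PPP1R15 and Sesn and overlap for crc, Gcn2, PEK and Irbp18.

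The transcription factor itself came first. The signal of crc (probe set 1631565_a_at, a type that reads several transcripts of 1 gene) was 11676, 12237 and 13013 on the vehicle arrays and 13377, 13265 and 12826 on the PA arrays. The lowest PA array lay below the highest vehicle array, so that the groups overlapped. The means were 12309 ± 671 and 13156 ± 291 (SD, n = 3 each). On the log2 scale the difference was 0.10 ± 0.04 (SE, limma adjusted p = 0.218), and the 95% interval of the fold ran from 1.01 to 1.14. This probe set is among the brightest on the arrays, and after quantile and cyclic loess normalization its log2 change was -0.012 and -0.0027.

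AsnS encodes asparagine synthetase, which makes asparagine from aspartate and glutamine and is a well-known ATF4 target in mammals. Its signal (probe set 1633765_at) was 1149, 1091 and 1246 with vehicle and 1785, 1788 and 1907 with PA. Every PA array lay above every vehicle array, and the lowest PA value exceeded the highest vehicle value by 43.2%. The means were 1162 ± 78.6 and 1826 ± 69.5 (SD, n = 3 each), a 1.57-fold difference with a 95% interval of 1.45 to 1.70. On the log2 scale this is 0.65 ± 0.05 (SE, limma adjusted p = 7.76e-06), and its p ranked 25 of 18769. Leaving out any 1 array gave log2 changes of 0.61 to 0.71, with adjusted p of 1.76e-05 to 0.000195. The study lists this gene among those it picked on the same arrays, so its direction is not independent of that choice. With no trend of the variance the adjusted p was 0.185.

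PPP1R15, the Drosophila GADD34 gene, encodes the subunit that directs protein phosphatase 1 to eIF2 and so brings the response to an end. Its signal (probe set 1638701_at) was 2688, 2574 and 2682 with vehicle and 3067, 3236 and 3169.95 with PA. All PA arrays exceeded all vehicle arrays, by 14.1% between the nearest values. The means were 2648 ± 64.4 and 3158 ± 85.3 (SD, n = 3 each), and the fold was 1.19 with a 95% interval of 1.13 to 1.26. The log2 difference of 0.25 ± 0.04 (SE) had a limma adjusted p of 0.00211 and ranked 127 of 18769 by p. The call was kept when any 1 array was left out (adjusted p = 0.00496 to 0.0184). It was lost when each array was centred on its median (0.17, adjusted p = 0.324) and with no trend of the variance (adjusted p = 0.386).

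Drosophila has a pair of eIF2 kinases, Gcn2, which senses uncharged tRNA, and PEK, the PERK homologue of the endoplasmic reticulum. Neither passed the test, and their signals moved to different sides. Gcn2 (probe set 1632728_at) had signals of 893, 975 and 857 with vehicle and 857, 828 and 873 with PA. The difference for Gcn2 was -0.09 ± 0.06 on the log2 scale (SE, adjusted p = 0.492), with a 95% interval of the fold from 0.864 to 1.02. PEK (probe set 1641072_at) had signals of 1069.7, 1079.6 and 1129 with vehicle and 1124, 1307 and 1228 with PA. PA replicate 1 lay inside the vehicle range and the other 2 PA arrays above it. For PEK the log2 difference was 0.16 ± 0.06 (SE, adjusted p = 0.146), or 0.21 when PA replicate 1 was left out (adjusted p = 0.0561). Centring each array on its 75th percentile raised it to 0.24, with an adjusted p of 0.0263.

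Irbp18 is a bZIP factor of the C/EBP kind that pairs with Xrp1. Its signal (probe set 1628683_at) was 1688, 1742 and 1654 with vehicle and 1735, 1822 and 1780.4 with PA. The groups overlapped through PA replicate 1, which lay just under vehicle replicate 2. PA minus vehicle was 0.07 ± 0.04 on the log2 scale (SE, adjusted p = 0.453), with a 95% interval of the fold from 0.987 to 1.12, and it was -0.01 when each array was centred on its median.

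Sesn encodes sestrin, a stress-inducible protein that restrains TOR complex 1 through the GATOR complexes. It was the only measured gene of the 7 with a call in the downward direction. The signal (probe set 1635678_at) was 651, 542 and 561 with vehicle and 398, 418 and 466 with PA. All PA arrays lay below all vehicle arrays, and the highest PA value was 14.1% under the lowest vehicle value. The means were 584.6 ± 58.04 and 427 ± 35.0 (SD, n = 3 each), the widest relative spread among the 7 genes, at 9.93% with vehicle and 8.20% with PA. The fold was 0.732, with a 95% interval of 0.648 to 0.826. The log2 difference was -0.45 ± 0.08 (SE, limma adjusted p = 0.00595, rank 254 of 18769), and -0.52 to -0.37 when 1 array at a time was left out (adjusted p = 0.0103 to 0.0298). With no trend of the variance the adjusted p was 0.376.

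**Figure D2:**
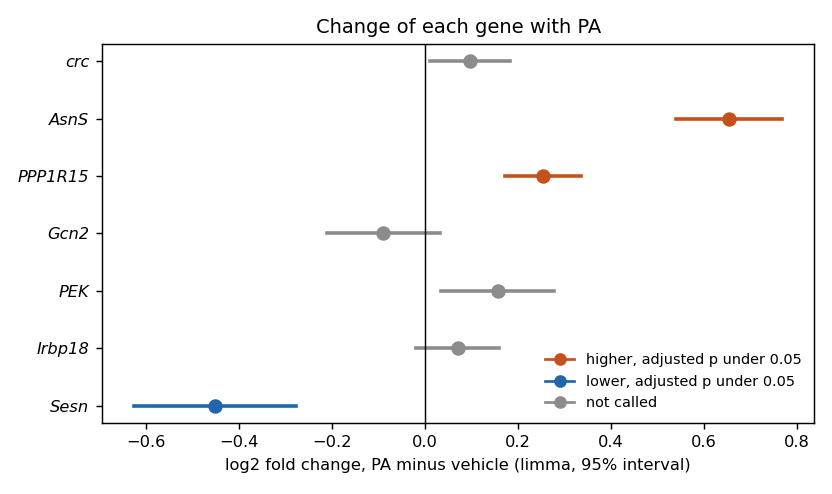
Log2 fold change of each gene, PA minus vehicle (x axis), as a point with its 95% interval from limma as a line, not adjusted for the number of probe sets. AsnS (0.65) and PPP1R15 (0.25) lie to the right of 0 and Sesn (-0.45) to the left, and the 4 genes in grey were not called.

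For AsnS, PPP1R15 and Sesn the arrays of the groups did not overlap, and the 2-sided exact permutation test gave p = 0.1 for each, the smallest that 3 arrays against 3 allow, so that it cannot reach 0.05. The same exact test gave p = 0.2 for crc, PEK and Irbp18 and p = 0.3 for Gcn2. Among all probe sets, 9.61% had their 3 PA values above the 3 vehicle values and 11.9% below, together 21.5%. In the upper 50% of signal these shares were 13.1%, 19.9% and 33.0%, and 2 members were of the first kind and 1 of the second.

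**Figure D3:**
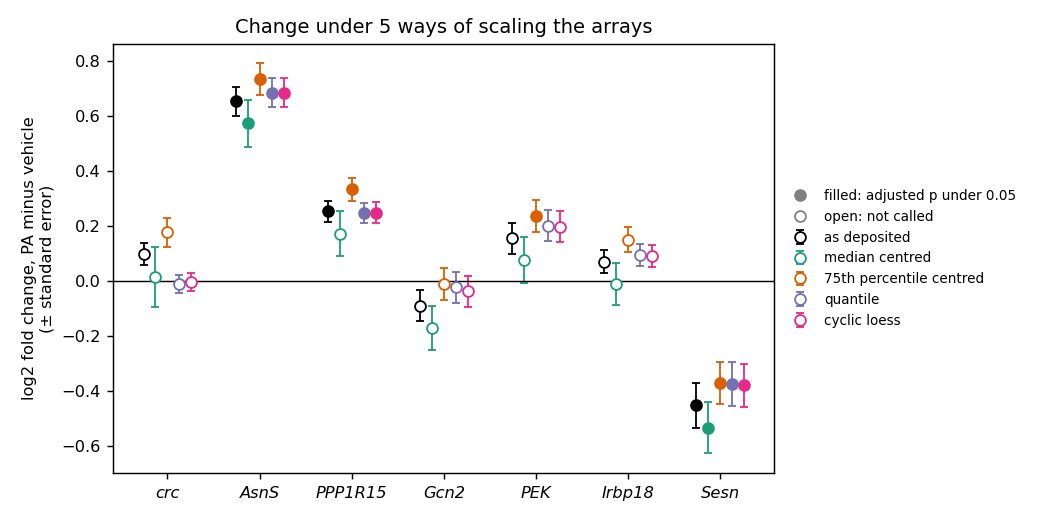
Log2 fold change, PA minus vehicle, with its standard error, for each gene under 5 ways of scaling the arrays, filled where the adjusted p was under 0.05. AsnS and Sesn are filled under all 5, PPP1R15 under all except centring on the median and PEK only after centring on the 75th percentile, while crc lies at 0 after quantile and cyclic loess normalization.

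A ratio between the signals of a pair of genes on the same array does not depend on a factor by which that array is scaled. Of the 21 ratios among the 7 genes, 14 did not overlap between PA and vehicle arrays, against 27.1% of the ratios between all pairs of genes in the upper 50% of signal. The 11 ratios with AsnS or Sesn, whose own arrays do not overlap, were all among the 14. Of the 10 ratios among the other genes, 3 did not overlap, a share near that background. These were PPP1R15 to Gcn2, PPP1R15 to Irbp18 and Gcn2 to Irbp18, and the arrays of PPP1R15 itself do not overlap either. The ratio of AsnS to Sesn was 1.77, 2.01 and 2.22 on the vehicle arrays and 4.48, 4.28 and 4.09 on the PA arrays, a 2.15-fold difference. The ratio of AsnS to PPP1R15, both of which rose, was 0.427, 0.424 and 0.465 with vehicle and 0.582, 0.553 and 0.601 with PA, so that AsnS changed more than PPP1R15 on these arrays. The ratio of crc to AsnS was 10.2, 11.2 and 10.4 with vehicle and 7.496, 7.42 and 6.73 with PA, 0.680 of the vehicle level, and did not overlap. That of Gcn2 to PEK had a log2 change of -0.25 and overlapped. Each exact permutation test of a ratio is bounded by p = 0.1 as above.

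**Figure D4:**
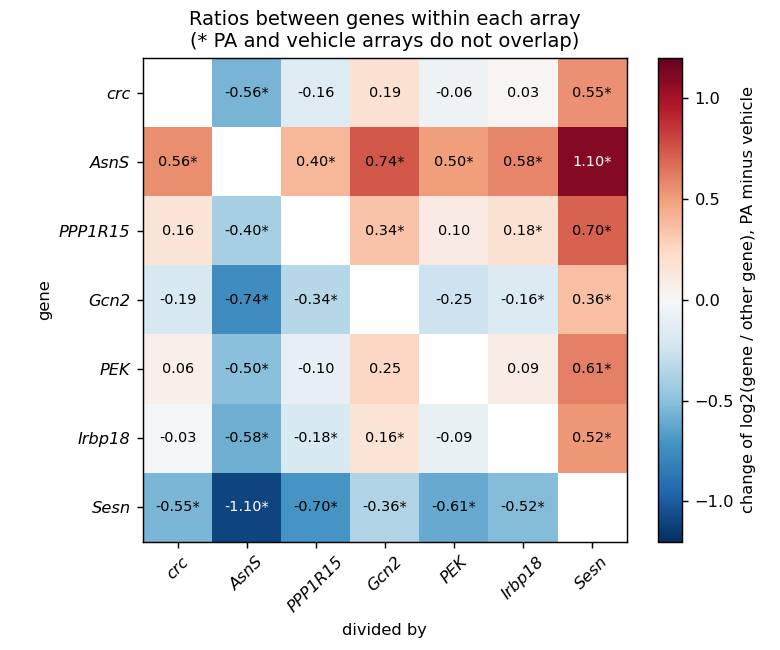
Change with PA of the log2 ratio of the gene in each row to the gene in each column, within arrays. Red fields mark a ratio that was higher with PA, and stars mark the 14 of 21 pairs whose PA and vehicle arrays do not overlap. The row of AsnS is red and that of Sesn blue throughout.

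By a fixed rule, the 3 genes whose log2 signal followed a member most closely over the 6 arrays were named, as a description. The points share their arrays and fall into 2 groups, so the likeness for AsnS and Sesn is largely that of any gene that differs between the groups. For AsnS these were CG10232, GstE3, a glutathione transferase gene, and CG11151, each with Pearson r = 0.996, and CG11151 was not called (log2 change 0.06, adjusted p = 0.391). For Sesn they were CG11737 (r = 0.996), the chloride channel gene ClC-b and lok, the checkpoint kinase Chk2, both with r = 0.991, and of these only lok was called. For crc they were Ubi-p5E (r = 0.998), vig2 (r = 0.995) and CG9919 (r = 0.994), none of which was called.

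Of the pathway genes around these members, JhI-21, path, Shmt, MCTS1 and Ire1 rose and gb fell. Outside the members, 7 lists of pathway genes held 74 measured genes, each counted once and represented by its brightest probe set. Of these, 5 were called higher and 1 lower, or 8.11%. With 1 probe set for each gene, 2.59% of all genes were called higher and 3.61% lower, together 6.20%, and 68 of the 74 lay in the upper 50% of signal, where 10.1% of probe sets were called. The number of calls in the lists was thus near the background. The median log2 change of all genes was -0.02. The arrays of the groups did not overlap for 24.4% of genes, 10.1% above and 14.3% below vehicle.

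**Figure D5:**
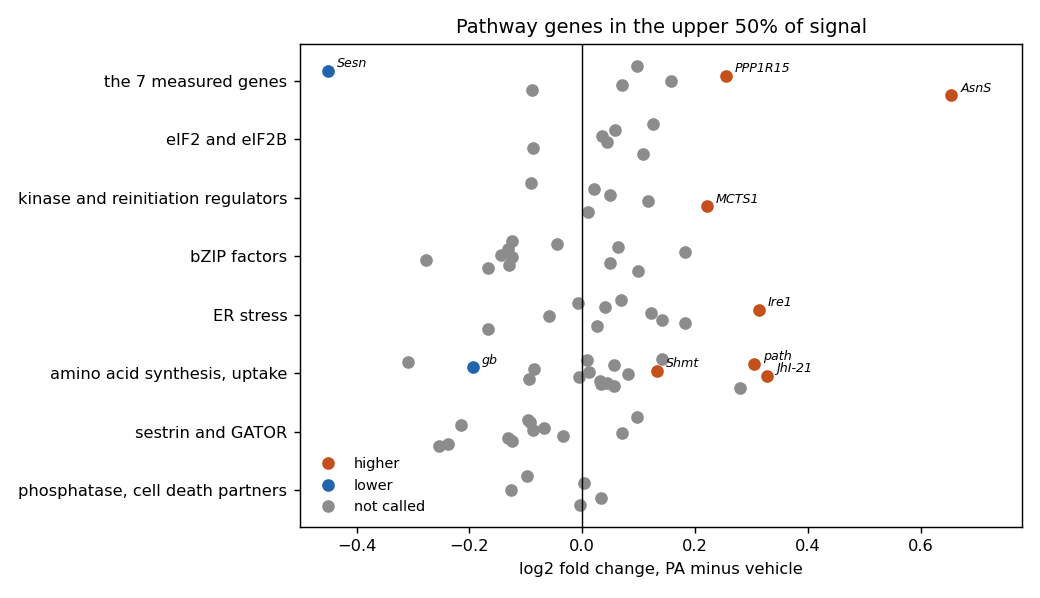
Log2 fold change, PA minus vehicle, of the measured genes of each list whose mean signal lies in the upper 50% (1 point per gene, height within a row has no meaning). The genes called higher or lower are named, and they lie in the rows of the 7 genes, reinitiation, endoplasmic reticulum stress and amino acid supply.

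Among 19 measured genes of amino acid synthesis and uptake, 3 rose, 1 fell and 15 did not pass, with a median log2 change of 0.04. Among its 6 carriers, 2 rose, 1 fell and 3 (mnd, slif and sbm) did not pass. JhI-21, an amino acid transporter of the CD98 light chain kind, had signals of 4808, 5113 and 5049.6 with vehicle and 6411, 6247 and 6115 with PA (0.33 ± 0.04 on the log2 scale, SE, adjusted p = 0.000163). The transporter gene path rose from 7685, 7636 and 6574 to 9028, 8891 and 9051.5 (0.30 ± 0.05 on the log2 scale, adjusted p = 0.00376, but 0.104 with quantile normalization). Both calls were kept when any 1 array was left out. They were lost when each array was centred on its median (adjusted p = 0.178 for JhI-21 and 0.245 for path). Shmt, a serine hydroxymethyltransferase of one-carbon metabolism, rose by a log2 change of only 0.13 (adjusted p = 0.0398, with quantile normalization 0.727). Its call was lost without vehicle replicate 1 or 2 or any 1 PA array (adjusted p = 0.0628 to 0.188). The gene gb (genderblind), which encodes a glutamate and cystine exchanger, fell by 0.19 (adjusted p = 0.0234), a call that was kept only without PA replicate 1 among the fits with 1 array left out. The call of gb was also lost under each of the 4 other scalings (adjusted p = 0.0879 to 0.232). The serine synthesis genes CG6287 and aay had log2 changes of 0.28 and -0.09 and did not pass (adjusted p = 0.196 and 0.688).

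The measured factors that act on eIF2 or read its state moved little. Of the genes listed, eIF2alpha, eIF2gamma, Gcn1, Nck and dock were not matched and were not analysed, so eIF2beta alone stands for eIF2 itself. None of 6 measured subunits of eIF2 and of its exchange factor eIF2B passed (median 0.05), with the smallest p for eIF2beta at a log2 change of 0.13 (adjusted p = 0.0748). eIF2Balpha, eIF2Bbeta and eIF2Bgamma had changes of 0.11, -0.09 and 0.06. Of 6 measured regulators of the kinases and of reinitiation, MCTS1 rose and 5 did not pass (median 0.04). MCTS1, which with DENR lets ribosomes restart after short upstream reading frames, had signals of 903, 866 and 904 with vehicle and 1096, 1010.0 and 1010.1 with PA. Its log2 fold change was 0.22 (adjusted p = 0.023), and this call was lost when any 1 array other than vehicle replicate 3 was left out (adjusted p = 0.0515 to 0.0984). Its partner DENR had a log2 change of 0.01. For NAT1, a translation factor, the change was 0.12, for the chaperone gene P58IPK 0.05 and for trbl (tribbles) -0.09, with adjusted p of 0.114, 0.602 and 0.555.

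Of 11 measured genes of the endoplasmic reticulum stress response, the branch in which PEK acts, Ire1 rose and 10 did not pass (median 0.07). For Xbp1, Calr and Edem1 of this list no probe set was annotated to exactly 1 gene, so they were not analysed. Ire1, the sensor that splices Xbp1 mRNA, had signals of 355, 382 and 319 with vehicle and 473, 415 and 423 with PA (0.31 ± 0.08 on the log2 scale, SE, adjusted p = 0.0435). The call was lost without vehicle replicate 1 or 3 or any 1 PA array (adjusted p = 0.0731 to 0.162), and a dim second probe set of Ire1 had a log2 change of -0.28 with a standard error of 0.59. It was also lost with arrays centred on the median (adjusted p = 0.276) but kept under the other scalings. With 16 or 64 added to every signal the adjusted p was 0.0813 and 0.106. The chaperone genes Gp93 and Hsc70-3 and the oxidase gene Ero1L did not overlap between groups, at log2 changes of 0.14, 0.12 and 0.18, with adjusted p of 0.0555, 0.0663 and 0.062. Atf6, a membrane-bound factor of the same list, did not overlap in the lower direction (1388, 1365 and 1349 with vehicle, 1276, 1236 and 1144 with PA). After quantile and cyclic loess normalization the change of Hsc70-3 was 0.01 and 0.03. That of Gp93 was 0.08 and 0.10 (adjusted p = 0.407 and 0.278). That of Ero1L was larger, at 0.24 and 0.23 (adjusted p = 0.0266 and 0.0282). Of the 11 genes of this list, 4 lay above vehicle without overlap and 1 below. In the upper 50% of signal, where 10 of the 11 lay, 13.1% of probe sets lay above and 19.9% below.

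None of 15 measured bZIP factor genes passed, and 9 of them had a negative change (median -0.12). Of all 11953 genes, 5511 had a change above 0, so negative changes were the more common ones there too. Cnc, the Drosophila homologue of Nrf2, had a log2 change of 0.18 (adjusted p = 0.089). For Atf6, Pdp1 and REPTOR-BP the changes were -0.17, -0.28 and -0.14, with adjusted p of 0.07, 0.161 and 0.124. The 12 measured genes around sestrin belong to the GATOR complexes and TOR complex 1, on which it acts, with RagC-D and S6k beside them. None of the 12 passed, and 10 of them had a negative change (median -0.09). Without overlap, 1 of them (S6k) lay above vehicle and 4 below, against 10.1% and 14.3% of all genes. All 12 lay in the upper 50% of signal, where 13.1% of probe sets lay above and 19.9% below. Iml1 and Nprl2, subunits of the GATOR complex that inhibits TOR complex 1, changed by -0.25 and -0.24 (adjusted p = 0.0993 and 0.115), and their PA arrays lay below their vehicle arrays. Nup44A and Sec13, of the opposing GATOR complex, had changes of -0.13 and -0.09 (adjusted p = 0.196 and 0.251). Centring each array on its 75th percentile brought Iml1, Nprl2, Nup44A and Sec13 to -0.17, -0.16, -0.05 and -0.008. With centring on the median they were -0.34, -0.32, -0.21 and -0.17. A last list of 12 held catalytic subunits of protein phosphatase 1, with which PPP1R15 acts, and genes linked to cell death and damage signals. None of 6 measured passed (median -0.0001). For rpr, hid, upd3, Thor, Ldh and Hsp22 no probe set was annotated to exactly 1 gene, so they were not analysed. The study reports Thor, a lactate dehydrogenase gene and a probe set of Hsp22 and Hsp67Bb as raised on the same arrays. The 6 measured genes therefore do not describe the whole list. Pp1alpha-96A had a log2 change of -0.13 (adjusted p = 0.133), Pp1-87B one of 0.03 (adjusted p = 0.76) and puc, a phosphatase gene of JNK signalling, one of -0.10 (adjusted p = 0.332). Ilp8 had signals under 7 on every array, where few changes can be called.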

How the data were processed

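RNA from 3 samples of S2 cells given 0.1 mM PA for 2 h and from 3 given vehicle was hybridized to Affymetrix GeneChip Drosophila arrays, 1 array per sample. The deposited values are MAS5 signals, intensities on a linear scale that the authors scaled on each array. The MAS5 version, genome build and detection calls are not given in the sources used here. The mean of each array after trimming 2% from each end was checked and was 500, and no further scaling was applied. Controls (183 probe sets) were left out, and 18769 probe sets were tested. Gene names came from the platform's annotation, and 13544 of 13647 probe sets with 1 gene took their present symbol from its gene identifier in a RefSeq table. No genome position or sequence is given, since the annotation names no build and none was used here.

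Groups were taken from the sample labels. PA minus vehicle was tested on log2 signals with no offset by limma 3.58.1 in R 4.3.3 (lmFit, eBayes with trend), with Benjamini-Hochberg adjustment over all probe sets, and the procedure was tested on simulated data. Exact permutation tests used scipy 1.17.1 in Python 3.11.15. The number of arrays limits the precision. The members and gene lists were chosen with earlier results of these data known. Named were all members, up to 4 genes of each list with the smallest p and the 3 genes most like crc, AsnS and Sesn. DENR, CG6287, aay, mnd, slif and sbm, and the ratios within arrays, were chosen after values were seen. Alternatives were other scalings, offsets of 16 and 64, a filter on signal, other variance models, array weights, the sample number as a block, the methods' t-test, the mean over a gene's probe sets and leaving out each array.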

Additional observations from a re-analysis of the deposited data

How the results depend on the processing

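The direction of AsnS, PPP1R15, Gcn2, PEK and Sesn was the same under all 19 alternatives run. Not all of these could turn a direction. The filter on signal, the other variance models, the sample block and the t-test leave each log2 change as it was. The direction of crc turned after quantile (-0.012) and cyclic loess normalization (-0.0027), and that of Irbp18 with arrays centred on the median (-0.010). Of the members, 2 were higher in the main test, 1 with arrays centred on the median, 0 with no trend, 1 (AsnS) by the methods' t-test plus the study's fold limits of 1.5 and 0.67, and 0 by that test after Benjamini-Hochberg adjustment. The 1 member that was lower became 0 with no trend and by both forms of the t-test. Centring on the 75th percentile gave 3 higher. Leaving out 1 array at a time gave 2 higher and 1 lower each time.

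Over all probe sets, 429 were higher and 529 lower. The counts were 58 and 350 with arrays centred on the median, 988 and 211 on the 75th percentile, 238 and 266 after quantile and 248 and 269 after cyclic loess normalization. They were 270 and 383 with an offset of 16, 225 and 314 with an offset of 64, 7 and 0 with no trend, 354 and 231 by the t-test with fold limits, 29 and 9 after its adjustment, and 196 to 402 and 262 to 412 with 1 array left out. Of the list genes, 6 were called, but 0 with median centring or no trend, 12 with the 75th percentile, 11 in the upper 50% of signal and 2 to 6 with 1 array left out. With no trend, limma draws the variance of each probe set toward 1 prior variance shared by bright and dim probe sets, and standard errors of the members were larger. Why calls changed under any of the alternatives was not tested.

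The labels number the samples 1 to 3 in both groups. In the upper 50% of signal, the deviations of same-numbered arrays from their group means correlated at -0.00985, -0.00376 and -0.0393. Pairs of different number had correlations of -0.0574 to 0.0675, so no deviation shared by same-numbered arrays was seen. Whether same-numbered samples were handled together is not stated, and these values cannot decide it. With the replicate block, 386 probe sets were higher and 557 lower, and 2 members were higher and 1 lower.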
